A study of Mus musculus with 8 samples.

Results

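The genes described here are 8 genes of sterol and fatty acid synthesis, taken by name from the 21434 genes in the table: Hmgcs1, Sqle, Srebf1, Srebf2, Fasn, Scd1, Fads1 and Fads2. All 8 were present, and all 8 passed the filter on low counts that left 12820 genes for the tests. They were measured by RNA-seq of whole pancreas in 4 Bach2KO and 4 Bach2WT mice, each mouse giving 1 library. Bach2KO mice were homozygous for the Bach2tm1b(EUCOMM)Wtsi allele of the line C57BL/6N-Bach2tm1b(EUCOMM)Wtsi/leg, a constitutive whole-body knockout, and Bach2WT mice were wild-type mice of that strain. All mice were 18 weeks old, untreated and fed control chow, and in each genotype mice 1 and 2 were female and mice 3 and 4 male. Because the knockout is constitutive and in every tissue, a difference in the pancreas cannot be told apart from one that begins in another organ, and Bach2KO mice had reached the age at which their lung disease limited the study. Whole tissue was homogenized, so fewer cells of a type and less RNA per cell cannot be told apart.

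Cells make cholesterol from acetyl-CoA in a long series of steps. HMG-CoA synthase, encoded by Hmgcs1, acts near the start, and squalene epoxidase, encoded by Sqle, makes the first oxygenated sterol precursor. Fatty acid synthase (Fasn) builds saturated fatty acids. Stearoyl-CoA desaturase (Scd1) makes them monounsaturated, and the delta-5 and delta-6 desaturases (Fads1 and Fads2) introduce further double bonds into polyunsaturated fatty acids. These enzymes are under the control of the sterol regulatory element-binding proteins, which are held in the endoplasmic reticulum when sterols are plentiful and released to the nucleus when they are scarce. Srebf2 encodes the form mainly linked to cholesterol synthesis, and Srebf1 the forms mainly linked to fatty acid synthesis. The exocrine pancreas is made largely of acinar cells, which maintain an extensive endoplasmic reticulum, and fat cells lie around and between its lobules.

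In mm39 coordinates of the deposited table, Srebf1 (ENSMUSG00000020538) lies on the minus strand at chr11:60089915-60113407 and Srebf2 (ENSMUSG00000022463) on the plus strand at chr15:82031382-82089580. Hmgcs1 (ENSMUSG00000093930) lies on the plus strand at chr13:120151915-120169796 and Sqle (ENSMUSG00000022351) on the plus strand at chr15:59186926-59203041. Fasn (ENSMUSG00000025153) lies on the minus strand at chr11:120696672-120715373 and Scd1 (ENSMUSG00000037071) on the minus strand at chr19:44382894-44396318. The pair of polyunsaturated desaturase genes are neighbours, with Fads2 (ENSMUSG00000024665) on the minus strand at chr19:10040129-10079110 and Fads1 (ENSMUSG00000010663) on the plus strand at chr19:10160252-10174241. All are protein-coding, and the values cover whole genes. Srebf1 overlaps Rai1 on the opposite strand by 109 bases, and since the strand setting of the counting is not given in the sources used here, reads in that stretch cannot be assigned with certainty. Srebf2 contains Gm49502, which had at most 2 counts in any library. Scd1 belongs to a family of similar genes, and the handling of reads that match more than 1 member is likewise not given.

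The sterol regulatory element is the short sequence that these factors bind in front of sterol genes, and it is shown here because it links the regulators to their targets. RefSeq promoters (GRCm38.p6, 250 bases before to 50 after each start) were at hand for 5 of the 8 genes. The motifs searched on both strands were TCACCCCA, the core of this element, CCAAT and CACGTG, all chosen after the sequences were seen. The core was present in the promoters of Hmgcs1 and Srebf2, in the plus orientation of each gene, and in 511 of all 32851 promoter windows of this length (1.56%). The windows around both matches, with the motif in capitals, are as follows.
Hmgcs1: acgtcaccgtcTCACCCCActtcccaggtc
Srebf2: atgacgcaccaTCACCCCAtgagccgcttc
The Hmgcs1 window is chr13:119690203-119690232 on the plus strand, with the motif beginning 137 bases upstream of the start site. The Srebf2 window is chr15:82147096-82147125 on the plus strand, with the motif beginning 162 bases upstream. The letters of the core were not in the windows of Srebf1 (3 promoters), Fasn and Fads2. CCAAT was in windows of Hmgcs1, Srebf2, Fasn and Srebf1 and not in that of Fads2, and is in 37.4% of all promoters. CACGTG was in none of these windows, and is in 7.15% of all promoters.

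The libraries held 72299745 to 172029360 counts on genes. Bach2 had 3 to 16 counts in libraries labelled Bach2KO and 4 to 31 in those labelled Bach2WT and did not pass the filter, so it could not check the genotype labels. The sex labels matched Xist and Ddx3y in all 8 libraries. Summed acinar markers were high in every library and lower in the Bach2KO group, at 206000 to 259000 CPM (counts scaled to a common library total with TMM factors) against 266000 to 346000 CPM (two-sided exact permutation test, p = 0.0286, the smallest that 4 against 4 mice allow), and their part in the results was not tested. Of the 8 acinar markers 6 had lower and 2 higher estimates in Bach2KO mice, with a median log2 fold change of -0.28, and the most abundant enzymes make up most of the sum. Adipocyte markers differed strongly between libraries, as described with Scd1. In the genotype comparison (edgeR's quasi-likelihood test with Benjamini-Hochberg adjustment), 1 gene of 12820 passed an adjusted p of 0.05, Rnase2a, and 957 (7.46%) had an unadjusted p under 0.05. The p-values set a difference against the spread between these mice.

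Levels between genes can be compared only per length, and the deposited FPKM values were used for this. Over the 8 libraries Fads2 had the highest mean level at 3.60 ± 1.32 FPKM (SD, n = 8), followed by Fads1 at 2.31 ± 0.545 FPKM. Fads2 stood above Fads1 in 6 of 8 libraries, so the order of this pair did not hold in every mouse. Srebf1 came next at 1.63 ± 0.464 FPKM and was below Fads1 in all 8 libraries. Scd1 at 1.22 ± 0.896, Fasn at 1.04 ± 0.357 and Srebf2 at 0.943 ± 0.145 FPKM formed a group whose order changed from mouse to mouse. Scd1 was above Fasn in only 3 of 8 libraries despite its higher mean, and Fasn was above Srebf2 in 4 of 8. The sterol enzymes were the lowest, with Sqle at 0.249 ± 0.0969 FPKM, below Srebf2 in all 8 libraries, and Hmgcs1 at 0.0919 ± 0.0322 FPKM, below Sqle in 7 of 8. Among all genes in the table, the mean level of Fads2 was at the 94.7th percentile and that of Hmgcs1 at the 54.1st.

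**Figure D1:**
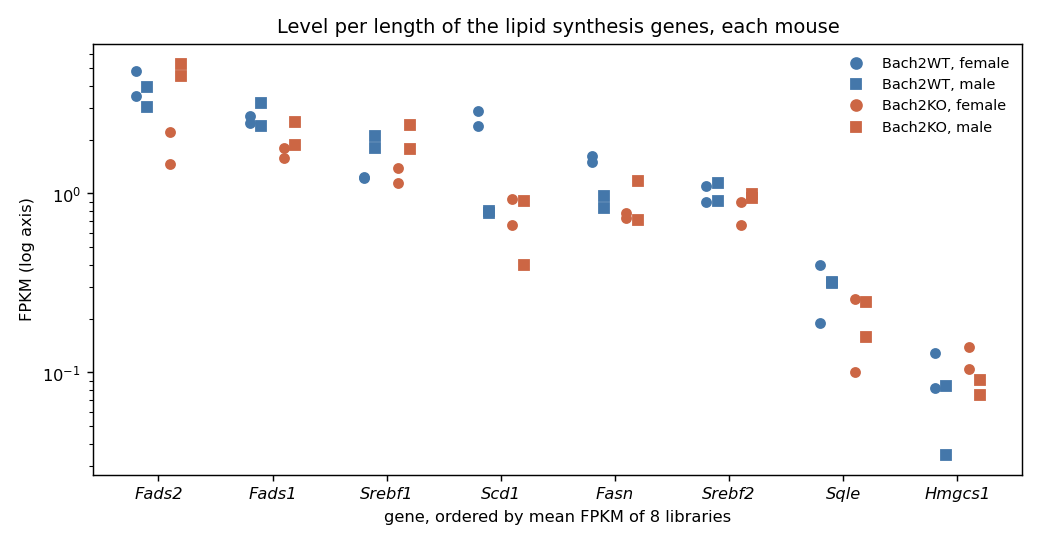
Level per length (FPKM, log axis) of the 8 genes in each mouse, ordered by the mean of 8 libraries, with circles for females and squares for males, blue for Bach2WT and red for Bach2KO. Fads2 and Fads1 lie highest and Sqle and Hmgcs1 lowest, and Scd1 spreads widely, from 0.398 to 2.88 FPKM.

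The order within each genotype differed mainly by the place of Scd1. In Bach2WT mice Scd1, at 1.71 ± 1.08 FPKM (n = 4), came directly after Fads1 by its mean, and in Bach2KO mice, at 0.725 ± 0.248 FPKM (n = 4), it came after Srebf1, Srebf2 and Fasn. Its place in Bach2WT mice rested on the females, at 2.88 and 2.37 FPKM, since both Bach2WT males, at 0.780 and 0.797 FPKM, had Scd1 below Srebf1, Fasn and Srebf2. The spread between mice also differed among the genes. Srebf2 was the steadiest, with a coefficient of variation of its CPM values of 15.8% in Bach2KO and 12.3% in Bach2WT mice, and its highest library was 1.67 times its lowest. Scd1 varied most in Bach2WT mice, at 63.9%, and its highest library was 7.28 times its lowest. Fads2 varied most in Bach2KO mice, at 53.5%, against 19.9% in Bach2WT mice.

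Of the 8 genes 0 passed the adjusted threshold between the genotypes in edgeR, where the background was 0.0078% of all genes tested, and DESeq2 likewise called 0 of them. The estimate was lower in Bach2KO mice for 6 genes (Sqle, Srebf2, Fasn, Scd1, Fads1 and Fads2) and higher for 2 (Hmgcs1 and Srebf1), and over all genes tested 45.3% of estimates were lower. The median log2 fold change was -0.32 over the 8 genes and 0.05 over all genes. Scd1 and Fads1 had an unadjusted p under 0.05, both with lower estimates in Bach2KO mice, where the background was 3.56% in that direction and 7.46% in both. The CPM values of the genotypes overlapped for each of the 8 genes, and 4.49% of all genes had groups that did not overlap.

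**Figure D2:**
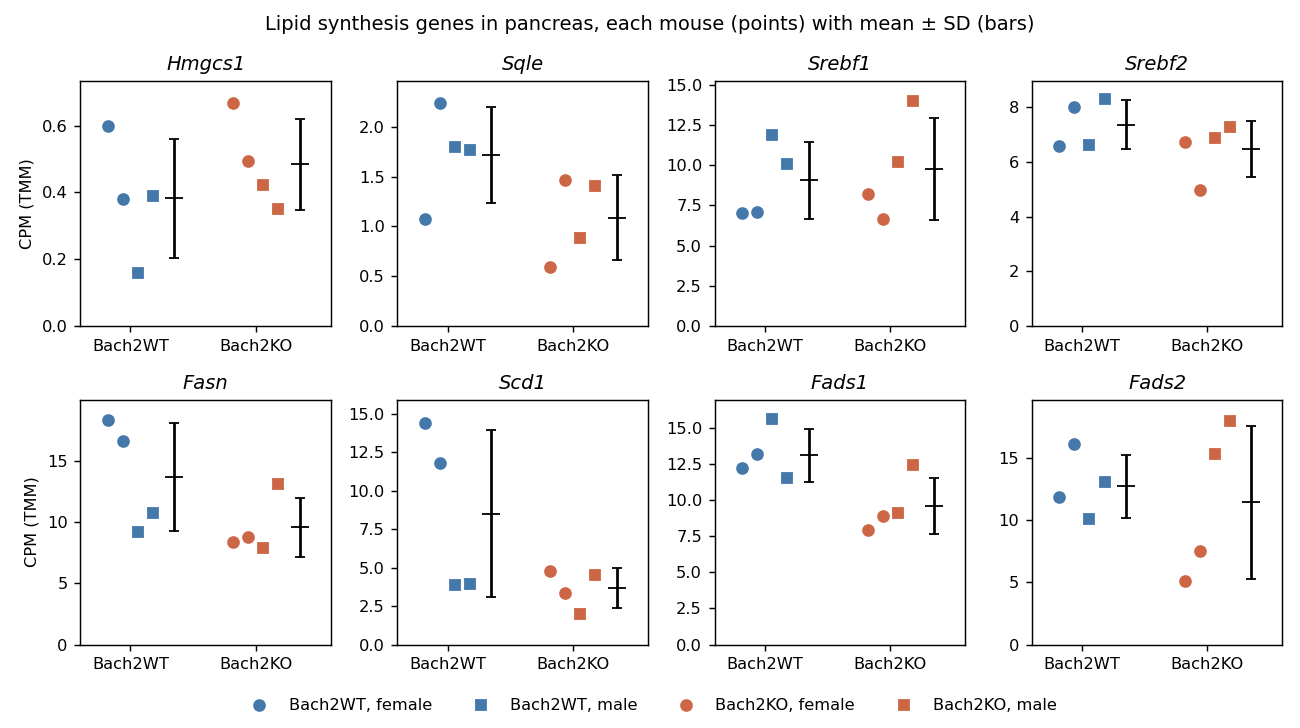
CPM (TMM-scaled, linear axes from 0, each panel with its own scale) of each gene in each mouse, with circles for females and squares for males, and bars for mean ± SD of 4 mice. The genotypes overlap in every panel, and the Bach2WT females stand apart for Scd1, at 14.4 and 11.8 CPM against 4.81 CPM or less in the other 6 mice.

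Neither regulator passed the adjusted threshold between the genotypes. Srebf2 measured 6.75, 4.97, 6.89 and 7.28 CPM in Bach2KO mice 1 to 4 and 6.58, 8.01, 6.61 and 8.29 CPM in Bach2WT mice 1 to 4. Bach2KO mice 1, 3 and 4 lay inside the Bach2WT range, and Bach2KO mouse 2 was the lowest of all. The log2 fold change was -0.19 ± 0.17 (SE, edgeR adjusted p = 0.881), and 2 standard errors on either side reach from -0.53 to 0.16. Srebf1 measured 8.22, 6.63, 10.2 and 14.0 CPM in Bach2KO mice and 7.04, 7.12, 11.9 and 10.1 CPM in Bach2WT mice. Its genotype difference was 0.11 ± 0.24 on the log2 scale (edgeR adjusted p = 0.96), and 2 standard errors on either side reach from -0.38 to 0.60.

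For Srebf1 the mice fell apart by sex. All 4 males, at 10.1 to 14.0 CPM, were above all 4 females, at 6.63 to 8.22 CPM (two-sided exact permutation test, p = 0.0286, the smallest possible). The background of genes with all males above all females was 0.967%. In edgeR with genotype as a covariate the male minus female difference was 0.67 ± 0.16 on the log2 scale, with an unadjusted p of 0.00147 and an adjusted p of 0.89, so it did not pass over all genes, of which 5.29% had an unadjusted p under 0.05. Only 4 genes passed in that comparison, 0.0312% of those tested, among them the sex-linked genes Xist, Ddx3y and Eif2s3y. Srebf1 had no evident sex difference in the genotype effect (males minus females 0.06 ± 0.34, edgeR adjusted p = 1). Srebf2 was 0.15 ± 0.17 higher in males on the log2 scale (edgeR adjusted p = 0.935).

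The ratio of the regulator genes within a library does not depend on the scaling of that library. The log2 ratio of Srebf1 to Srebf2 in FPKM was 0.63, 0.76, 0.91 and 1.29 in Bach2KO mice 1 to 4 and 0.45, 0.18, 1.20 and 0.64 in Bach2WT mice 1 to 4. Srebf1 was therefore the higher of the pair in every mouse. The genotypes did not differ beyond their spread (difference 0.28, two-sided exact permutation test, p = 0.286, adjusted over 3 ratios 0.771). Males were at 1.01 ± 0.29 and females at 0.51 ± 0.25 (SD, n = 4 each, exact permutation p = 0.0571, adjusted over 3 ratios 0.0857).

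The sterol enzymes were measured with few counts, 23 to 108 for Hmgcs1 and 67 to 294 for Sqle in a library, which limits their precision. Sqle measured 0.593, 1.47, 0.885 and 1.41 CPM in Bach2KO mice and 1.08, 2.24, 1.80 and 1.77 CPM in Bach2WT mice. Bach2WT mice 2, 3 and 4 were above all Bach2KO mice, and Bach2WT mouse 1 was below 2 of them. The log2 fold change was -0.66 ± 0.34 (edgeR unadjusted p = 0.073, adjusted p = 0.715), and the estimates in females alone (-0.72 ± 0.55) and in males alone (-0.63 ± 0.40) were close to each other. Hmgcs1 measured 0.667, 0.495, 0.423 and 0.352 CPM in Bach2KO mice and 0.600, 0.381, 0.160 and 0.389 CPM in Bach2WT mice, with overlapping groups and a log2 fold change of 0.35 ± 0.49 (edgeR adjusted p = 0.933). The interval of 2 standard errors, from -0.63 to 1.32, leaves room for a difference in either direction.

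The rest of the cholesterol pathway, without Hmgcs1 and Sqle, also had estimates in both directions. Of 18 further genes listed, 16 were tested, 6 had higher and 10 lower estimates in Bach2KO mice, and the median log2 fold change was -0.09. A single gene, Msmo1, which removes methyl groups from sterol precursors, had an unadjusted p under 0.05 and none passed the adjusted threshold. Msmo1 was at 0.531 ± 0.207 CPM in Bach2KO and 1.00 ± 0.442 CPM in Bach2WT mice (log2 fold change -0.90 ± 0.42, edgeR adjusted p = 0.667). The summed CPM of these 18 genes was 24.9 to 31.9 in Bach2KO and 25.7 to 33.4 in Bach2WT mice (two-sided exact permutation test, p = 0.857).

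Among the other genes that control the sterol regulatory element-binding proteins or take up sterol, 7 of 8 were tested, 1 had a higher and 6 lower estimates, the median was -0.37, and none had an unadjusted p under 0.05. The gene with the smallest p was Insig2, which retains the factors in the endoplasmic reticulum, at 1.56 ± 0.281 CPM in Bach2KO and 2.02 ± 0.440 CPM in Bach2WT mice (log2 fold change -0.37 ± 0.25, edgeR adjusted p = 0.799). The list of liver X receptor (LXR) and sterol export genes held Nr1h2, Nr1h3, Abca1, Abcg1, Mylip, Lpcat3, Soat1 and Apoe, not all of them exporters. It had the opposite balance, with 6 of 8 estimates higher, a median of 0.21 and none with an unadjusted p under 0.05. The sterol exporters Abca1 and Abcg1 had log2 fold changes of 1.04 ± 0.52 and 0.63 ± 0.33 (edgeR adjusted p = 0.697 and 0.718). Without Bach2KO mouse 1 the value of Abca1 was 0.53, and without Bach2WT mouse 1 it was 1.73.

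**Figure D3:**
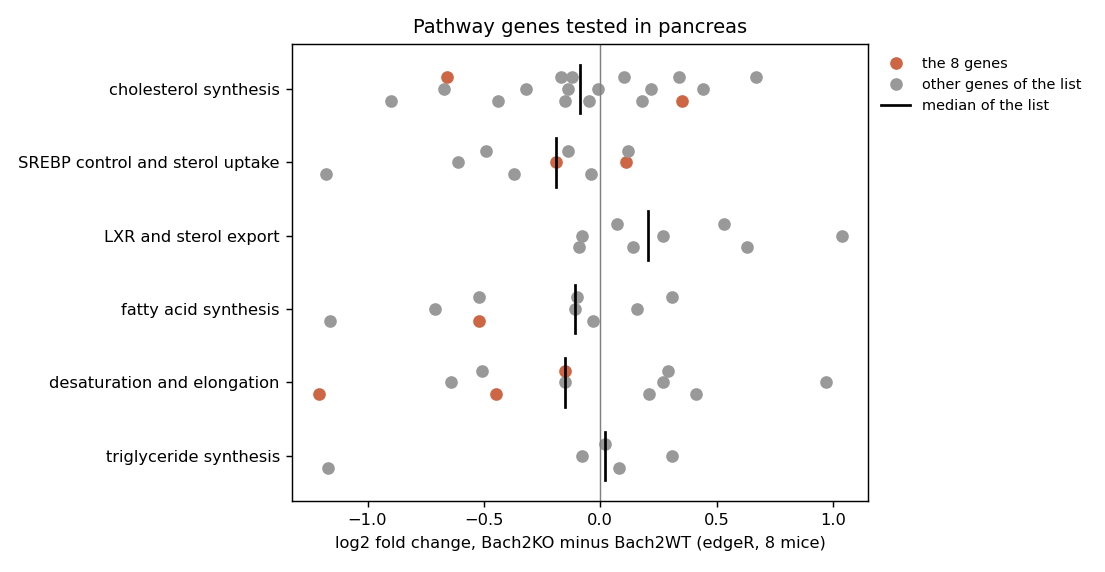
Log2 fold change, Bach2KO minus Bach2WT, of every tested gene in 6 pathway lists, with the 8 genes in red, the other genes in grey and a bar at the median of each list, the 8 genes included. These medians run from -0.19 for SREBP control and sterol uptake to 0.21 for LXR and sterol export, and genes of each list lie on both sides of 0.

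Scd1 had the largest estimate of the 8 genes. It measured 4.81, 3.36, 1.98 and 4.52 CPM in Bach2KO mice 1 to 4 and 14.4, 11.8, 3.85 and 3.93 CPM in Bach2WT mice 1 to 4. Both Bach2WT females were far above the other 6 mice, whereas both Bach2WT males lay inside the Bach2KO range. The mean was 3.67 ± 1.29 CPM against 8.49 ± 5.43 CPM (SD, n = 4 each), a fitted level 2.31 times as high in Bach2WT mice. The log2 fold change was -1.21 ± 0.41, with an unadjusted p of 0.012 and an adjusted p of 0.56 in edgeR. An exact permutation of the CPM values gave p = 0.229.

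Fasn followed a similar order with a smaller difference. It measured 8.38, 8.81, 7.90 and 13.1 CPM in Bach2KO mice and 18.3, 16.6, 9.19 and 10.7 CPM in Bach2WT mice. The Bach2WT females were again the highest, and Bach2KO mouse 4, a male, was above both Bach2WT males. The log2 fold change was -0.52 ± 0.24 (edgeR unadjusted p = 0.0512, adjusted p = 0.669).

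For both genes the estimate was larger in females than in males. In females alone the log2 fold change of Scd1 was -1.70 ± 0.29 (edgeR adjusted p = 0.483) and that of Fasn -1.04 ± 0.24 (edgeR adjusted p = 0.619), with 2 mice a group. In males alone it was -0.25 ± 0.38 for Scd1 and 0.09 ± 0.27 for Fasn (edgeR adjusted p = 0.984 and 0.996). The difference between the sexes in the genotype effect was 1.43 ± 0.49 for Scd1 and 1.10 ± 0.37 for Fasn on the log2 scale, with unadjusted p-values of 0.0133 and 0.0116 and an adjusted p of 0.794 for both in edgeR, so it did not pass over all genes. Without Bach2KO mouse 4 these differences were 0.70 for Scd1 and 0.69 for Fasn. Over both genotypes Scd1 was 1.04 ± 0.32 lower in males on the log2 scale (edgeR unadjusted p = 0.00726, adjusted p = 0.89), with overlapping sexes.

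**Figure D4:**
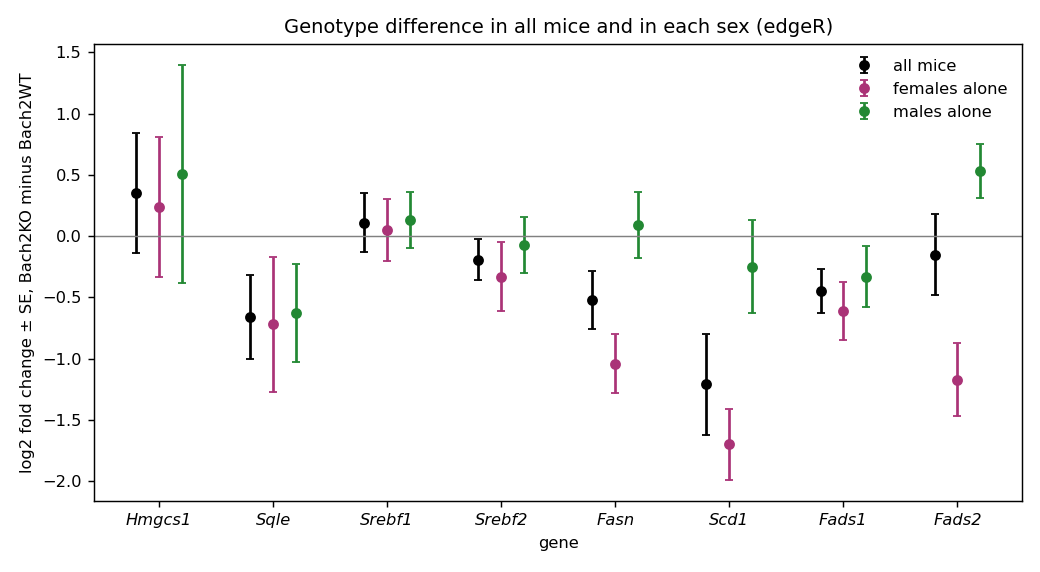
Log2 fold change, Bach2KO minus Bach2WT, with its SE from edgeR for each gene in all 8 mice (black), in females alone (purple) and in males alone (green). Scd1, Fasn and Fads2 have estimates of -1.70, -1.04 and -1.17 in females and of -0.25, 0.09 and 0.53 in males.

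Markers of adipocytes were set beside Scd1 in each mouse. The summed CPM of 12 adipocyte markers was 23.3, 4.81, 5.61 and 5.67 in Bach2KO mice 1 to 4 and 32.8, 25.3, 6.35 and 4.13 in Bach2WT mice 1 to 4 (two-sided exact permutation test between the genotypes, p = 0.286). The females Bach2WT mice 1 and 2 and Bach2KO mouse 1 were thus at 23.3 to 32.8 CPM and the other 5 mice at 4.13 to 6.35 CPM. Adipoq, which encodes the fat cell hormone adiponectin, had 215, 259 and 48 counts in those 3 libraries and 0, 0, 2, 0 and 0 in the others. In CPM the values of those 3 were 2.39, 1.97 and 0.296. The largest parts of the sum in Bach2KO mouse 1 were Cfd at 7.39 and Plin4 at 6.62 CPM. Of the 12 markers 8 were at 0 in Bach2KO mouse 2 and in Bach2KO mouse 3, and between 0 and 3 were at 0 in each of the other 6 libraries. Of the 9 markers tested 3 had higher and 6 lower estimates in Bach2KO mice, with a median log2 fold change of -1.12. Plin1, a coat protein of lipid droplets, had 14, 0, 0 and 0 counts in Bach2KO mice and 101, 105, 44 and 14 counts in Bach2WT mice. Its level in Bach2KO mouse 1, 0.0865 CPM, was below those of Bach2WT mice 3 and 4, 0.306 and 0.202 CPM. Plin4 went the other way between the genotypes (log2 fold change 1.58 ± 1.17, edgeR adjusted p = 0.82).

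The same 3 libraries were the highest of the 8 for Scd1, at 4.81 to 14.4 CPM against 1.98 to 4.52 CPM. For the other 7 genes they were not. Scd1 in Bach2KO mouse 1, at 4.81 CPM, was close to the 4.52 CPM of Bach2KO mouse 4, whose marker sum was 5.67 CPM. Bach2KO mouse 1 ranked 7th of 8 for Fasn and last for Fads1, Fads2 and Sqle. When these 3 libraries were left out, the log2 fold change was -0.24 for Scd1, 0.00 for Fasn, -0.42 for Fads1, -0.50 for Sqle, -0.22 for Srebf2, 0.64 for Hmgcs1, 0.24 for Fads2 and -0.10 for Srebf1. The estimates of Fads1, Sqle and Srebf2 moved by less than 1.5 times, and those of the other 5 genes by more or to the other sign. The 3 libraries are all from females and include both Bach2WT females. That leaves 1 female among the other 5 mice, a Bach2KO mouse, and only males in the Bach2WT group. In the fit without them genotype is therefore mixed with sex, and sex and adipocyte content cannot be told apart here.

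**Figure D5:**
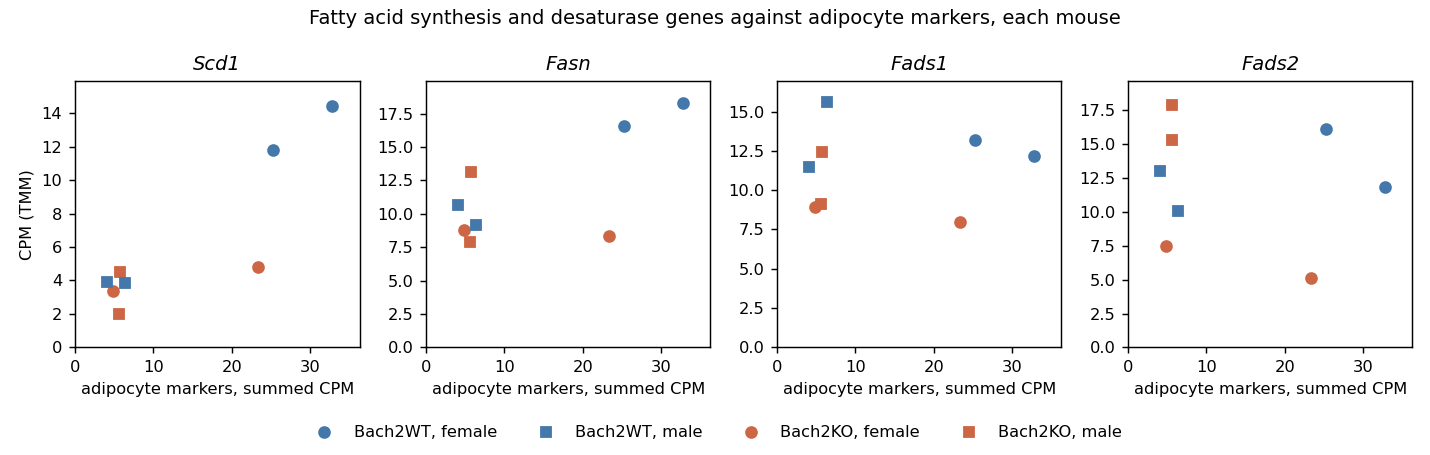
CPM of Scd1, Fasn, Fads1 and Fads2 in each mouse against the summed CPM of 12 adipocyte markers, linear axes from 0, with circles for females and squares for males. The 3 libraries with marker sums of 23.3 to 32.8 CPM are the highest for Scd1, whereas for Fads1 and Fads2 the library at 23.3 CPM is the lowest of the 8.

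The ratio of Scd1 to Scd2, a second stearoyl-CoA desaturase gene, gave a further view of this sample. The log2 ratio in FPKM was 0.39, -0.90, -1.47 and -1.80 in Bach2KO mice 1 to 4 and 0.90, -0.13, -2.23 and -1.30 in Bach2WT mice 1 to 4. All 4 males were below all 4 females, with means ± SD of -1.70 ± 0.41 and 0.07 ± 0.77 (exact permutation of 4 against 4 mice, p = 0.0286, adjusted over 3 ratios 0.0857). All females but Bach2KO mouse 2 are the libraries rich in adipocyte markers, so sex and adipocyte content cannot be told apart for this ratio either. The genotypes did not differ beyond their spread (difference -0.25, exact permutation p = 0.771, adjusted over 3 ratios 0.771). Scd2 itself was at 8.69 ± 6.02 CPM in Bach2KO and 13.5 ± 5.07 CPM in Bach2WT mice (log2 fold change -0.64 ± 0.39, edgeR adjusted p = 0.776), and its log2 fold change was -1.24 without Bach2KO mouse 4 and -0.37 without Bach2WT mouse 3.

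Fads1 was the gene with the second smallest p among the 8. It measured 7.96, 8.90, 9.11 and 12.4 CPM in Bach2KO mice 1 to 4 and 12.2, 13.2, 15.6 and 11.5 CPM in Bach2WT mice 1 to 4. Bach2KO mice 1, 2 and 3 were below all Bach2WT mice, and Bach2KO mouse 4 lay inside the Bach2WT range. The log2 fold change was -0.45 ± 0.18 (edgeR unadjusted p = 0.0249, adjusted p = 0.627), and the exact permutation of the CPM values gave p = 0.0857. The estimate was -0.61 ± 0.24 in females alone and -0.33 ± 0.25 in males alone, and the difference between the sexes was 0.26 ± 0.35 (edgeR adjusted p = 0.968).

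Fads2, its neighbour on chromosome 19, had no such difference over all mice but opposite estimates in the sexes. It measured 5.09 and 7.50 CPM in Bach2KO females against 11.8 and 16.1 CPM in Bach2WT females. In males it measured 15.3 and 17.9 CPM in Bach2KO mice against 10.1 and 13.0 CPM in Bach2WT mice. Both Bach2KO females were below both Bach2WT females, and both Bach2KO males were above both Bach2WT males. These are 2 mice against 2 in each sex, and the share of all genes with this pattern is not given here. Over all mice the log2 fold change was -0.15 ± 0.33 (edgeR adjusted p = 0.958). In females alone it was -1.17 ± 0.30 (edgeR adjusted p = 0.649) and in males alone 0.53 ± 0.22 (edgeR adjusted p = 0.817). The difference between the sexes was 1.67 ± 0.38 on the log2 scale, with an unadjusted p of 0.000919 and an adjusted p of 0.78 in edgeR, so it did not pass over all genes with this test. With DESeq2 the adjusted p of this difference was 0.0405.

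Of the 8 genes 3 (Fads2, Scd1 and Fasn) had an unadjusted p under 0.05 for the difference between the sexes in the genotype effect, all with the more negative estimate in females, and the background in that direction was 3.27%. In edgeR 0 of 12820 genes passed the adjusted threshold, and 787 (6.14%) had an unadjusted p under 0.05. DESeq2 called 18 genes. Markers of some other cell types also had estimates in this direction, and most of those of acinar, islet and liver cells did not. All 4 endothelial markers had an unadjusted p under 0.05 for this difference, with values of 0.94 to 1.70 on the log2 scale (edgeR adjusted p = 0.807 for each). The 5 markers of stellate cells and fibroblasts were at 0.43 to 1.74, the 4 tested T cell markers at 1.70 to 6.95 and the 5 macrophage markers at 0.05 to 0.94, with 1 of each list under 0.05. The T cell values rest on few counts. The largest, 6.95 ± 2.36 for Cd3d, comes from 0 counts in Bach2WT mice 3 and 4 and at most 31 in any library. Of the 9 tested adipocyte markers, 6 were above 0, 1 of them with an unadjusted p under 0.05. Of the 8 acinar markers 3 were above 0, and the 1 with an unadjusted p under 0.05 was below 0. The count above 0 was 2 of 6 for islet, 3 of 5 for duct, 2 of 2 for B cell and 0 of 2 for hepatocyte markers tested. The part of these cell types in the differences of Fads2, Scd1 and Fasn was not tested. With 2 mice per sex and genotype, each of these estimates rests on 8 mice in 4 cells.

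The log2 ratio of Fads1 to Fads2 in FPKM was 0.10, -0.30, -1.29 and -1.08 in Bach2KO mice 1 to 4 and -0.50, -0.83, 0.09 and -0.72 in Bach2WT mice 1 to 4. Among Bach2KO mice both females were above both males, and among Bach2WT mice the sexes overlapped. The genotypes did not differ beyond their spread (difference -0.15, two-sided exact permutation test, p = 0.686, adjusted over 3 ratios 0.771).

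The other genes of fatty acid metabolism were described by lists from which the 8 genes were taken out. In fatty acid synthesis all 8 genes other than Fasn were tested, 2 had higher and 6 lower estimates in Bach2KO mice, and the median was -0.11. Slc25a1, which exports citrate from mitochondria for fatty acid synthesis, had an unadjusted p under 0.05, at 11.8 ± 2.15 CPM in Bach2KO and 16.9 ± 3.02 CPM in Bach2WT mice (log2 fold change -0.52 ± 0.19, edgeR adjusted p = 0.593). Thrsp, a gene of lipogenic tissues, was at 0.375 ± 0.197 and 0.837 ± 0.635 CPM (-1.16 ± 0.60, edgeR adjusted p = 0.718), and like Scd1 it was highest in the 3 libraries with the most adipocyte markers. The summed CPM without Fasn was 29.6 to 34.7 in Bach2KO and 31.7 to 41.1 in Bach2WT mice (two-sided exact permutation test, p = 0.114).

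In desaturation and elongation, without Scd1, Fads1 and Fads2, 8 of 14 listed genes were tested, 5 had higher and 3 lower estimates, and the median was 0.24. The only one of them with an unadjusted p under 0.05 was Tecr, which encodes the last enzyme of the elongation cycle. Tecr was at 20.9 ± 3.38 CPM in Bach2KO and 29.7 ± 5.95 CPM in Bach2WT mice (log2 fold change -0.51 ± 0.18, edgeR adjusted p = 0.597). The summed CPM without Scd1, Fads1 and Fads2 was 37.1 to 57.3 in Bach2KO and 44.7 to 64.2 in Bach2WT mice (two-sided exact permutation test, p = 0.0857). In triglyceride synthesis 5 of 6 genes were tested, 3 with higher and 2 with lower estimates. Dgat2, which adds the final acyl chain of triglycerides, was at 1.01 ± 0.0836 CPM in Bach2KO and 2.28 ± 1.13 CPM in Bach2WT mice (-1.17 ± 0.35, edgeR unadjusted p = 0.00472, adjusted p = 0.513). An exact permutation of its CPM values gave p = 0.0857. The Bach2WT females were at 3.48 and 2.96 CPM, and Bach2WT mouse 4, at 1.02 CPM, lay inside the Bach2KO range. In males alone the log2 fold change of Dgat2 was -0.50 ± 0.45. Gpam, which adds the first acyl chain, was at 3.56 ± 1.18 CPM in Bach2KO and 2.89 ± 0.703 CPM in Bach2WT mice (edgeR adjusted p = 0.857).

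For each gene, the genes whose log2 CPM followed it most closely over the 8 libraries were found among 9867 genes with at least 10 counts in every library. The highest Pearson r was 0.978 for Hmgcs1 (Zswim4), 0.976 for Sqle (Ppp1ca), 0.917 for Srebf1 (Eola1) and 0.953 for Srebf2 (Kit). It was 0.951 for Fasn (Specc1l), 0.967 for Scd1 (Mbtps2), 0.976 for Fads1 (H2az1) and 0.957 for Fads2 (Wars). Mbtps2, which encodes the site-2 protease that releases the sterol regulatory element-binding proteins, was measured with 28 to 143 counts in a library. Next in order came Mtss2 and Rcsd1 for Hmgcs1 (0.966 and 0.957), Gm38910 and Mrps10 for Sqle (0.972 and 0.970), Mat2a and Git1 for Srebf1 (0.902 and 0.897) and Sgms2 and Ntng2 for Srebf2 (0.925 and 0.923). The same places were held by Atpaf2 and Exosc10 for Fasn (0.942 and 0.938), Wwc2 and 1810053B23Rik for Scd1 (0.946 and 0.940), Cib2 and Xpnpep1 for Fads1 (0.975 and 0.957) and Myh14 and Habp2 for Fads2 (0.954 and 0.953). These values describe 8 libraries that differ in depth and in sex, were picked as the highest of many, and carry no test.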

How the data were processed

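Pancreatic RNA-seq libraries of 8 mice were used. Per the labels and the submitters' processing notes, poly-T-selected mRNA was sequenced in 150-base paired reads on a NovaSeq X Plus, and fastp, HISAT2 2.2.1, featureCounts 2.0.6 and mm39 are named there. The authors deposited 1 table with raw counts per gene, a normalized signal (the counts of a library over its size factor) and FPKM values (that signal divided by gene length and 1 common constant). Columns with the authors' own genotype comparison (log2 fold change, p-value and adjusted p-value) were not used. Among counts from 1 to 50, even values were in excess, and counts divided by 2 were tried as an alternative.

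On the deposited counts, edgeR 4.0.16 compared the genotypes by its quasi-likelihood test, with TMM factors, genes kept by filterByExpr (12820), no covariate and Benjamini-Hochberg adjustment at 0.05. Sex was tested with genotype as a covariate, and sex by genotype as an interaction. Mean CPM values (TMM-scaled) and log2 ratios of FPKM values were compared by two-sided exact permutation of 4 against 4 mice. Log2 CPM used a prior count of 2, and SE is the size of the log2 fold change divided by the square root of F. The procedure was tested on simulated counts. DESeq2 1.42.0 and the other alternatives are in the closing section. A planned correlation with adipocyte markers is not given, because the marker sums fell into 2 separate clusters.

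The 8 genes and the lists were chosen with earlier results of these data known. Named genes were the 8, the 2 others with the smallest p in each pathway list, and the 3 most alike for each of the 8, and results for a few genes that meet these rules are not reported here. Rnase2a, the genes called by sex and the leaving out of the 3 libraries rich in adipocyte markers were chosen after values were seen. So were the markers Adipoq, Plin1, Plin4, Cfd and Cd3d. Lists were also drawn up for islet, duct, immune, endothelial, stellate and liver cells. In the genotype comparison and the interaction 0 of their tested genes passed the adjusted threshold. The depth of a library limits the precision of genes with few counts such as Hmgcs1.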

Additional observations from a re-analysis of the deposited data

Results flagged for a closer look

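Among the 8 genes, Fads2 was the one whose genotype difference ran in opposite directions in the sexes in every mouse. The genotype difference of males minus that of females was 1.67 on the log2 scale. Both Bach2KO females were below both Bach2WT females while both Bach2KO males were above both Bach2WT males, and the test of the difference itself gave an unadjusted p of 0.000919 (edgeR, 8 mice, adjusted p = 0.78). The share of all genes with such a separation in both sexes is not given here. When each mouse was left out in turn, the difference was 1.42 to 1.98 and the edgeR adjusted p 0.238 to 1. In 36 groups of 4 mice (the 8 genes and other reported values), no mouse stood far enough from the others of its group to be called an outlier, where chance would give about 1 in 20.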

How the results depend on the processing

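As reported, edgeR called 1 gene between the genotypes, 4 between the sexes and 0 for their interaction. For the genotypes, DESeq2 called 80 (57 higher, 23 lower in Bach2KO mice), no filter on low counts 73, and 3 alternatives called 0 (a sex covariate, counts divided by 2, and a minimum of 10 counts per mouse). Leaving out each mouse gave 0 to 0. With alternatives added after seeing the data, males alone gave 4 and leaving out the 3 adipocyte-rich libraries 4. For the sexes DESeq2 called 19, no filter 152 and leaving out each mouse 2 to 9 (9 without Bach2KO mouse 2, 2 without Bach2KO mouse 3 or 4). For the interaction DESeq2 called 18, no filter 92 and leaving out each mouse 0 to 6 (6 without Bach2KO mouse 2). The replicate numbers did not pair the mice (same-numbered mice correlated at 0.212, -0.0344, -0.0409 and -0.0543), and a replicate block gave 0 calls between the genotypes. A correction for gene length moved the share of higher estimates among unadjusted calls from 52.2% to 30.3% and the median of all genes from 0.05 to -0.06.

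Of the 8 genes and 10 others named from the pathway lists, 16 of 18 kept the direction of their genotype estimate in 9 alternatives with all mice and in 8 fits without a mouse. The exceptions were Srebf1, at -0.02 with length correction, -0.12 to 0.27 without a mouse and -0.10 without the 3 adipocyte-rich libraries, and Fads2, at -0.46 to 0.09 without a mouse, 0.24 without those 3 libraries and 0.53 in males alone. Scd1 stayed between -1.45 and -0.83 without a mouse, and its smallest adjusted p in any alternative was 0.0937. Other ranges without a mouse that moved by over 1.5 times were 0.09 to 0.65 for Hmgcs1, -0.25 to -0.08 for Srebf2, 0.53 to 1.73 for Abca1, 0.42 to 0.96 for Abcg1, -1.46 to -0.66 for Thrsp, -1.24 to -0.37 for Scd2, -0.49 to -0.24 for Insig2 and 0.10 to 0.46 for Gpam. Fasn was 0.00 without those 3 libraries and 0.09 in males alone. In 1 sex alone, Insig2 was 0.02 (females), and Thrsp 0.27 and Gpam -0.06 (males). Without a filter the sex difference of Scd1 was -1.05 (edgeR adjusted p = 0.00087) and the Fads2 interaction 1.68 (adjusted p = 0.00736), and DESeq2 gave 1.69 for the latter. Without a mouse the sex difference of Sqle was -0.08 to 0.42, and the interaction was -0.26 to 1.01 for Hmgcs1, -0.55 to 0.86 for Sqle and -0.19 to 0.27 for Srebf1. The genotype difference of the log2 ratios was -0.40 to 0.07 for Fads1 to Fads2 and -0.77 to 0.28 for Scd1 to Scd2. The causes of these shifts were not tested.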
